A study of Mus musculus with 2 samples.

Results

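The genes described are 44 imprinted genes, listed by name from the loci known to carry parental imprints in mouse, with earlier results of these data known. A row was matched by gene identifier for 43 of the 44, out of 42442 genes with a symbol among 69691 rows of the gene tables. Peg13 was not matched and is not analysed here. RNA came from the midbrain of 2 newborn mice of strain B6NCrl, postnatal day 0, labelled pup 1 and pup 3, with 1 total RNA library each. They form a single group, with no genotype or treatment recorded, so nothing is compared between conditions, and the spread given is that between these 2 pups. The libraries held 36934868 and 40769103 expected counts, which are estimates of the reads assigned to each gene.

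An imprinted gene is transcribed mainly or wholly from the copy inherited from the mother or from the copy inherited from the father. The choice is set by DNA methylation laid down in the germ line at a control region, and genes of a locus often answer to the same region, with a long noncoding RNA from the other parental copy. Several of these genes are known for high levels in brain and for roles in growth, neonatal feeding and neuronal maturation. Parental copies cannot be told apart in these tables, which hold no allele counts and come from a single strain, so the allele named for a gene below is background and not a measurement.

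The first sequences shown are the stretches just upstream of the start sites of imprinted genes that carry the hexamer TGCCGC, which the zinc finger protein ZFP57 binds when it is methylated. The search covered both strands (TGCCGC and its reverse complement GCGGCA) in the 250 bases before each RefSeq start on GRCm38.p6. RefSeq promoters were found for 35 of the genes, 52 promoters in all, and 9 of them (17.3%), from 8 genes, held the hexamer, against 2850 of 32851 promoters of the whole table (8.68%). The median number of CpG dinucleotides in the same window was 10 for the imprinted genes and 6 for all promoters. The hexamer itself holds a CpG, so the shares with a match are not set side by side at equal CpG content. The Mest windows before the starts at 30738050 and 30738053 overlap and hold the same 2 matches, so the 9 are not all separate sites. A match is a description of the letters and not of binding. The 4 with a match and no overlap with an untranslated region follow, 5′ to 3′ along the gene, with the hexamer in capitals. They lie at chr6:30737800-30738049 on the plus strand for Mest, chr12:109540746-109540995 on the plus strand for Meg3, chr6:58907127-58907376 on the minus strand for Nap1l5, and chr1:63200108-63200357 on the plus strand for Zdbf2.
Mest: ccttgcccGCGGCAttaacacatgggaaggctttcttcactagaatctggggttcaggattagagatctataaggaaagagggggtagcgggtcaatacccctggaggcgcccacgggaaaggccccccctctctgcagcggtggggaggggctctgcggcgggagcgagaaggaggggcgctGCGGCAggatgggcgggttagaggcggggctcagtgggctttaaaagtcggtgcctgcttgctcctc
Meg3: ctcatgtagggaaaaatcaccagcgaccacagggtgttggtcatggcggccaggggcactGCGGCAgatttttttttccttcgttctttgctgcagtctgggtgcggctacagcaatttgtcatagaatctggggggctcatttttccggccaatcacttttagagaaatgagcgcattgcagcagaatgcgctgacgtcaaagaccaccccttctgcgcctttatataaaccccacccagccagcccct
Nap1l5: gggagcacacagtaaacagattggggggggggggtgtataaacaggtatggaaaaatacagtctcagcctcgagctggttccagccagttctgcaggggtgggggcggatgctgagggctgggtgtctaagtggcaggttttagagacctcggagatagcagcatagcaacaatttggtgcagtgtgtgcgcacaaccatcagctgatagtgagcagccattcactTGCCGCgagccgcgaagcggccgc
Zdbf2: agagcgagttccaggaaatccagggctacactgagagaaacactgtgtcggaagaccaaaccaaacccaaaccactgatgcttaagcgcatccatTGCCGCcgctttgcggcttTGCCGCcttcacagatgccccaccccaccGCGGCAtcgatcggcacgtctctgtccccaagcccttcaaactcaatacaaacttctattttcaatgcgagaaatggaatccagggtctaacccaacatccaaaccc
The Zdbf2 window held 3 matches, the Mest window 2, and the Meg3 and Nap1l5 windows 1 each. The Zdbf2 window belongs to a RefSeq start upstream of every Zdbf2 transcript in the deposited tables, so no value below is read from that start. ZFP57 itself is encoded by a gene at 142 TPM in pup 1 and 146 TPM in pup 3, where TPM is the level after division by transcript length and scaling to a fixed sum per library.

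Most of the imprinted genes were detected, and as a group they lay well above the ordinary gene of these libraries. In both pups 39 of 43 reached 1 TPM, against 34.8% of all genes with a symbol and 62.1% of protein-coding genes. At 100 TPM or more there were 11 (4.15% of all genes with a symbol). At 1000 TPM there were 5 (0.238% of the same genes), namely Nnat, Ndn, Gnas, Meg3 and Snrpn. Of 21473 protein-coding genes, 1686 reached 100 TPM and 85 reached 1000 TPM in both pups. Of the 36 protein-coding imprinted genes, 9 and 4 did. The median level was 29.4 TPM in pup 1 and 36.4 TPM in pup 3 (32.9 ± 4.89, SD, n = 2), while that of protein-coding genes was 4.52 and 4.70 TPM. Together the 43 genes held 1.55% of all TPM in pup 1 and 1.58% in pup 3, and without Nnat they held 0.823% and 0.865%.

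Grouped by the allele known to be expressed, the 23 measured paternal genes had medians of 19.2 and 21.6 TPM (pup 1, then pup 3), and summed to 1.10% of TPM in both. The 8 maternal genes had medians of 15.9 and 19.6 TPM and summed to 0.182% and 0.200% of TPM. The 12 genes whose allele depends on tissue or transcript had medians of 40.995 and 42.8 TPM. Nnat alone made up 7225 of the 10986 TPM of the paternal genes in pup 1 and 7129 of 11006 TPM in pup 3. The plot of levels by gene shows that in all 3 groups the genes covered several orders of magnitude.

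**Figure D1:**
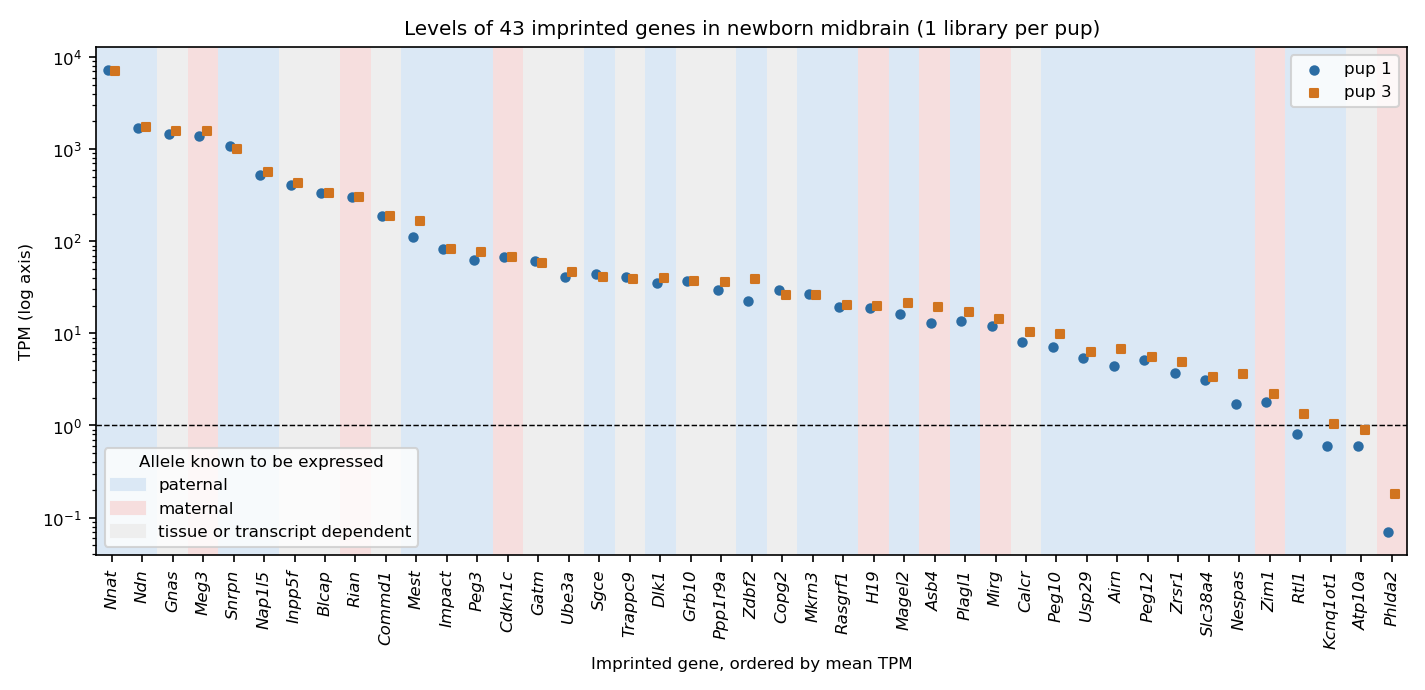
TPM of each of the 43 imprinted genes on a log axis in pup 1 (circles) and pup 3 (squares), ordered by mean TPM, with background shading for the allele known to be expressed and a dashed line at 1 TPM. Nnat stands highest at 7225 and 7129 TPM, and 39 genes lie on or above the line in both pups.

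The most abundant was Nnat (ENSMUSG00000067786, chr2:157560078-157562522, plus strand, mm10), which encodes neuronatin, a small proteolipid of the endoplasmic reticulum in developing neurons. Its level was 7225 TPM in pup 1 and 7129 TPM in pup 3, the 8th highest of all genes by mean TPM. Blcap, the gene whose intron contains Nnat on the opposite strand, read 338 and 335 TPM. The log2 ratio of Nnat to Blcap was 4.41 ± 0.0050, and the ratio was almost identical in the pups. Here and below a ratio is of TPM with 0.1 added, taken within each library, and 2 genes are called apart when both libraries gave the same sign, the mean exceeded 1 and 3 SD, and the authors' credibility intervals did not overlap.

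Nnat transcripts are annotated from 1 start region but spliced in alternative ways that keep or skip an 81-base coding exon. Transcripts without that exon carried 72.2% ± 1.22 (SD, n = 2) of the Nnat TPM and those with it 27.8% ± 1.22, at 26.9% in pup 1 and 28.6% in pup 3. The exon, at chr2:157561213-157561293 on the plus strand and read from the GENCODE M21 transcript, is shown because it is the difference between the alternative neuronatin messages; capitals are not used in it.
Nnat exon: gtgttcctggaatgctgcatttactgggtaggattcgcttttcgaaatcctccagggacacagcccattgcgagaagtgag

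The domain on chromosome 7 that is involved in Prader-Willi and Angelman syndromes spanned 3 orders of magnitude. Ndn, encoding the MAGE family protein necdin of postmitotic neurons, read 1698 TPM in pup 1 and 1727 TPM in pup 3. Snrpn, encoding the neuronal spliceosome protein SmN, read 1078 and 1011 TPM. By TPM, both paternal genes held their level between the pups within 0.1 on the log2 scale. By counts scaled to equal depth, Snrpn was at -0.11 (pup 3 minus pup 1). Ndn and Snrpn were not apart from each other (log2 ratio of Snrpn to Ndn -0.71 ± 0.083).

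The other paternal genes of that domain were far lower than Ndn. Magel2, another MAGE family gene, read 16.4 and 21.6 TPM, which put Ndn above it by 6.50 ± 0.26 on the log2 scale. Mkrn3, a RING finger gene linked to the timing of puberty, read 26.9 and 26.3 TPM (Ndn to Mkrn3 6.00 ± 0.040). Peg12, of the family of GSK3-binding Frat proteins, read 5.09 and 5.58 TPM (Ndn to Peg12 8.30 ± 0.075). All 3 pairs were apart in both libraries, although these genes sit side by side.

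Ube3a, the ubiquitin ligase known for silencing of its paternal copy in neurons, read 41.1 TPM in pup 1 and 46.5 TPM in pup 3. The transcript antisense to it, Snhg14, read 63.5 and 83.0 TPM. Exons of these genes overlap on opposite strands, and since it is not given whether counting used the strand, their reads cannot be told apart with certainty. Snrpn exceeded Ube3a by 4.58 ± 0.19 and Snhg14 by 3.84 ± 0.34 on the log2 scale. Atp10a, a phospholipid transporter at the edge of the domain, was the only gene of the domain under 1 TPM in both pups, at 0.60 and 0.90 TPM on 75 and 122 counts.

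Snrpn was read by transcript as well. Transcript Snrpn-201 carried 95.04% ± 0.135 of Snrpn TPM (94.9% in pup 1 and 95.1% in pup 3), and a transcript that starts far upstream carried 4.96% ± 0.135. In TPM, the upstream form stood at 54.6 in pup 1 and 49.2 in pup 3. Snurf, listed separately although its coding region lies in the same message, read 676 and 639 TPM, and the counts of Snrpn were not whole, so some of its reads were split with another row.

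At the Gnas locus on chromosome 2, maternal, paternal and biallelic transcripts are known to start from different promoters. Most of the TPM was assigned to transcripts of a single annotated start. Here and below, starts were not measured, and the split among them rests on the deposited transcript estimates. Gnas, encoding the stimulatory G protein alpha subunit, read 1480.2 TPM in pup 1 and 1559 TPM in pup 3. The start of the ordinary Gs-alpha message (chr2:174330006-174330287) gave 94.9% ± 0.391 of it, or 1401 and 1484 TPM. The exon 1A start (chr2:174327570-174328023) gave 45.9 and 41.5 TPM, the Nesp start (chr2:174284320-174285358) 28.8 and 28.0 TPM, and the extra-large start (chr2:174297859-174297859) 2.51 and 2.49 TPM. The order of these 4 starts was the same in both pups, and the Gs-alpha start lay far above the others. Nespas, the noncoding RNA antisense to Nesp, read 1.71 and 3.61 TPM on 52.0 and 122 counts, and Gnas exceeded it by 9.20 ± 0.68 on the log2 scale.

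The Gs-alpha message is also spliced with or without a 45-base coding exon that makes the long and short forms of the protein. Among annotated Gnas transcripts, those with the exon held 91.9% ± 0.373 of the Gnas TPM and those that skipped it 7.65% ± 0.311. Its sequence, at chr2:174336747-174336791 on the plus strand in GENCODE M21, is shown as the stretch that separates the forms; no part is capitalised.
Gnas exon: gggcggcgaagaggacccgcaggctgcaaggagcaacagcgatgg

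For Inpp5f, an inositol phosphatase gene on chromosome 7, the TPM was likewise assigned almost wholly to transcripts with an internal annotated start. The gene stood at 403 TPM in pup 1 and 429 TPM in pup 3. Transcripts from the start at chr7:128687546-128688489 held 97.1% ± 0.0623 of it, or 392 and 417 TPM. The full-length start at chr7:128611328-128611360 held 2.79% ± 0.114, or 10.95 and 12.3 TPM. In brain the internal start is known as the paternally expressed form, while the full-length message comes from both copies.

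Grb10, encoding an adapter of insulin and growth factor receptors, is known for a maternal message in most tissues and a paternal one in neurons. The gene read 37.2 TPM in pup 1 and 36.8 TPM in pup 3. Its leading transcript, Grb10-201, held 50.5% of the TPM in pup 1 and 59.5% in pup 3 (55.0 ± 6.38), and 77.9% ± 5.67 of the counts. Transcripts from the start region at chr11:12026324-12026732 held 31.1% ± 4.06 of TPM but 4.29% ± 0.899 of counts, and the start at chr11:12027971-12027971 held 13.01% ± 3.16 of TPM. The order of the last 2 start regions reversed when shares were taken of counts (17.4% ± 4.95 for the latter), so only the leading start was the same on both scales. Ddc, a neighbour that makes an enzyme of dopamine synthesis, read 20.1 and 19.7 TPM and was not apart from Grb10 (0.89 ± 0.0092), but was on counts not divided by length (1.89).

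**Figure D2:**
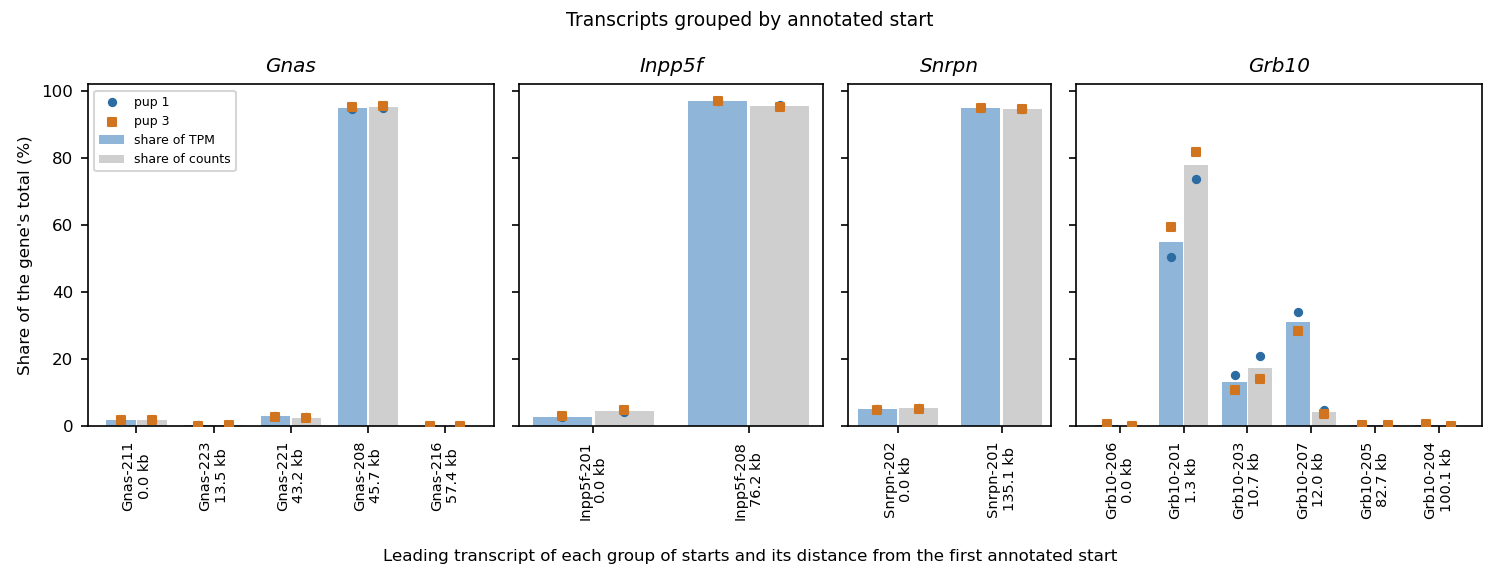
Share of each gene's TPM (blue bars) and of its expected counts (grey bars) carried by transcripts grouped by annotated start, for Gnas, Inpp5f, Snrpn and Grb10; bars are means of the 2 pups, points the pups, and groups under 0.1% of TPM are left out. The leading start held 94.9% of Gnas, 97.1% of Inpp5f, 95.04% of Snrpn and 55.0% of Grb10 TPM.

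Over all the members, 13 had 1 transcript in the tables and 30 had more, and 26 of the 30 had the same leading transcript in both pups. The exceptions were Commd1, Peg10, Ppp1r9a and Sgce. For 7 of the 30 the leader by TPM did not lead by counts, namely Commd1, Mest, Mirg, Ppp1r9a, Rian, Sgce and Zdbf2. Neither share was taken over all genes, so they are not read as particular to the imprinted genes.

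The Dlk1-Meg3 domain of chromosome 12 was led by its maternal noncoding RNAs. Meg3 (ENSMUSG00000021268, chr12:109541001-109571726), a long noncoding RNA, read 1402 TPM in pup 1 and 1580.3 TPM in pup 3. Rian, host of a snoRNA cluster, read 300.4 and 300.7 TPM, and Mirg, host of a microRNA cluster, 12.1 and 14.5 TPM. Meg3 exceeded Rian by 2.31 ± 0.12 and Mirg by 6.80 ± 0.065 on the log2 scale, in that order along the chromosome in both pups.

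The paternal genes of the same domain lay below Meg3 and Rian, although Dlk1 lay above Mirg. Dlk1, a Notch-ligand-like membrane protein, read 35.4 TPM in pup 1 and 40.3 TPM in pup 3, below Meg3 by a log2 ratio of 5.30 ± 0.0097 (Meg3 over Dlk1). Rtl1, a retrotransposon-derived gene, read 0.81 and 1.32 TPM on a mean of 162.5 counts, and overlaps microRNA genes on the other strand. Meg3 transcripts mixed lengths, and the 14548-base Meg3-209 held 4.87% and 6.09% of Meg3 TPM but 34.1% and 38.1% of its counts. The 1498-base ENSMUST00000129245 held 56.0% and 63.9% of TPM and led on both scales.

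On distal chromosome 7, Cdkn1c, a maternal gene for the cyclin-dependent kinase inhibitor p57, read 67.3 TPM in both pups. H19, the maternal noncoding RNA at the adjoining locus, read 18.7 and 19.7 TPM, and its paternal partner Igf2, a growth factor gene, read 165 and 179 TPM. H19 lay below Igf2 by a log2 ratio of -3.16 ± 0.031, with nearly the same value in each pup. Igf2 is also a gene of meninges, and the meningeal list with it is given with the other marker lists below. Phlda2, a growth gene of placenta, gave only 1 count in pup 1 and 3 in pup 3, at or under the floor of 3 counts used here. Kcnq1ot1, the long antisense RNA that silences this locus on the paternal copy, read 0.60 and 1.03 TPM on 1168 and 2188 counts spread over a long gene, and was not apart from Kcnq1, a potassium channel gene at 0.74 and 1.05 TPM on the other strand (0.14 ± 0.17). That ratio was -5.25 on counts not divided by length and 1.53 with posterior means, and the pair was apart on both, in opposite directions.

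At the Peg3 locus, the paternal zinc finger gene Peg3 read 62.2 TPM in pup 1 and 77.4 TPM in pup 3. Usp29, a paternal gene of the deubiquitinase family that starts next to it on the other strand, read 5.42 and 6.23 TPM. Zim1, a maternal zinc finger gene, read 1.79 and 2.20 TPM. Peg3 exceeded Usp29 by 3.56 ± 0.082 and Zim1 by 5.06 ± 0.021 on the log2 scale.

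At the Peg10-Sgce locus of chromosome 6, Sgce stood above its paternal partner. Peg10, a retrotransposon-derived gene known for placenta, read 7.03 TPM in pup 1 and 9.83 TPM in pup 3, and Sgce, encoding epsilon-sarcoglycan, read 44.7 and 40.6 TPM, with Peg10 lower by a log2 ratio of -2.34 ± 0.43 (-0.95 and no longer apart when counts were not divided by length). Among the neighbours, Ppp1r9a (neurabin, an actin-binding protein of synapses) read 29.4 and 36.4 TPM and was not apart from Sgce (0.38 ± 0.31), but lay above it on counts not divided by length (-1.36, apart). Asb4, a maternal gene of the SOCS box family, read 13.1 and 19.6 TPM and was not apart from Sgce either (1.40 ± 0.50), although each pup alone passed the limit of 1, at 1.76 in pup 1 and 1.05 in pup 3. Calcr, the calcitonin receptor, read 7.98 and 10.4 TPM and was apart (2.21 ± 0.37, but 0.96 on counts not divided by length).

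On the same chromosome, Mest, a paternal gene of the alpha/beta hydrolase family whose upstream sequence is printed above, read 111 TPM in pup 1 and 165 TPM in pup 3. Copg2, a coat protein gene that overlaps its end on the other strand, read 29.6 and 26.4 TPM, and the counts of both were not whole. Mest exceeded Copg2 by 2.28 ± 0.52 on the log2 scale, with Mest higher and Copg2 lower in pup 3. The Mest start at chr6:30738050-30738055, which lies just after the printed window, held 47.7% ± 1.91 of TPM and 75.4% ± 1.22 of counts. A transcript of 836 bases without a match in GENCODE M21 held 50.3% ± 0.735 of TPM and 24.0% ± 0.938 of counts, and the start region at chr6:30733454-30733506 held 0% in both pups. Nap1l5, a paternal gene of the nucleosome assembly family with a single transcript, read 518 and 566 TPM, while Herc3, the gene whose intron holds it, read 19.6 and 26.9 TPM (4.55 ± 0.23).

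The remaining members sit at loci with 1 or 2 listed genes. Impact, a paternal regulator of translation on chromosome 18, read 82.0 TPM in pup 1 and 83.3 TPM in pup 3. Commd1, a copper metabolism gene, read 186 and 189 TPM, and Zrsr1, a paternal splicing-related gene inside its intron, 3.69 and 4.87 TPM (Commd1 over Zrsr1 5.43 ± 0.26). Airn, the paternal noncoding RNA that silences Igf2r, read 4.44 and 6.69 TPM on 69 and 100 counts and was not apart from Igf2r, at 4.29 and 4.62 TPM (-0.29 ± 0.34, but 3.49 on counts not divided by length). Plagl1, a paternal zinc finger factor, read 13.7 and 17.1 TPM, and Rasgrf1, a Ras exchange factor of neurons, 19.2 and 20.3 TPM. Slc38a4, an amino acid transporter, stood at 3.14 and 3.36 TPM. Trappc9, of a vesicle-tethering complex, read 40.9 and 39.1 TPM, and Gatm, an enzyme of creatine synthesis, 61.5 and 58.2 TPM. Zdbf2, a paternal zinc finger gene of chromosome 1, read 22.6 TPM in pup 1 and 38.9 TPM in pup 3. Of its transcripts, that of 611 bases held 81.3% ± 0.304 of Zdbf2 TPM, but the 12629-base transcript held 84.9% ± 0.256 of its counts, so the TPM and the counts of Zdbf2 rest on different transcripts. Adam23, its neighbour, read 12.9 and 16.4 TPM (1.02 ± 0.30 for Zdbf2 over Adam23, called apart). That call was lost in pup 1 alone (0.81), on counts not divided by length (0.18), with posterior means (0.95) and with 1 TPM added (0.98).

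Across loci, 31 of 32 listed pairs of neighbours could be read, and 25 were apart, the first gene being higher in 23 and lower in 2, H19 below Igf2 and Peg10 below Sgce. The other 6 were Snrpn with Ndn, Kcnq1 with Kcnq1ot1, Sgce with Ppp1r9a, Sgce with Asb4, Igf2r with Airn, and Grb10 with Ddc. The plot of pair ratios shows both pups for each pair. The share apart was not taken for other neighbouring genes, so 25 of 31 does not set the imprinted loci apart. Which gene stood first was fixed by the list, and several genes recur among the pairs. Exons overlap on opposite strands for Ube3a and Snhg14, Kcnq1ot1 and Kcnq1, Gnas and Nespas, Mest and Copg2, and Zrsr1 and Commd1, so the split of reads within these pairs is uncertain. The Nnat and Blcap pair alone held 48.9% of the imprinted genes' TPM in pup 1 and 47.3% in pup 3.

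**Figure D3:**
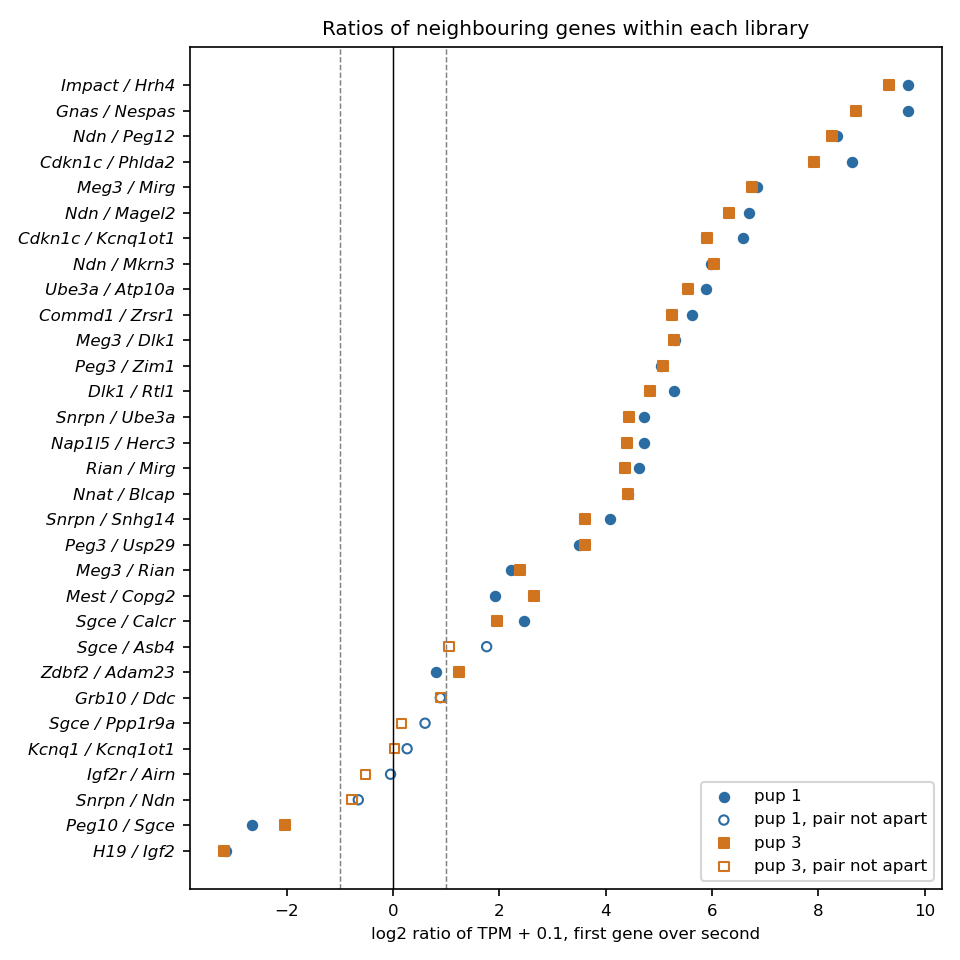
Log2 ratio of TPM (0.1 added) of the first gene to its neighbour in pup 1 (circles) and pup 3 (squares); open symbols are pairs not called apart, and the dashed lines stand at -1 and 1. Of 31 pairs 25 are apart, with H19 below Igf2 at -3.16 and Nnat above Blcap at 4.41.

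The pups were close to each other for most of the imprinted genes, as they were for most other genes. At a mean of 100 counts or more, 39 genes could be compared, and none differed by more than 1 on the log2 scale, against 0.302% of 13252 genes (0.204% higher in pup 3 and 0.0981% higher in pup 1). At so low a background share, none of 39 does not set the imprinted genes apart from other genes. Taken without sign, the median difference was 0.137 for the imprinted genes and 0.109 for all genes. With 2 pups an exact two-sided sign-flip test cannot go below p = 0.5, so no test is given. Higher in pup 3 were 30 of 39, against 54.7% of all genes, and the median difference (pup 3 minus pup 1) was 0.13 for the imprinted genes and 0.018 for all genes. When counts were scaled by edgeR's TMM, 28 of 39 were higher in pup 3, and the share of all genes fell to 47.0%, so the direction of the ordinary gene depended on the scaling. By allele, the counts higher in pup 3 were 17 of 21 paternal, 7 of 7 maternal and 6 of 11 others. Among the maternal genes, Cdkn1c (0.00064) and Rian (0.0015) were almost equal in the pups, and Cdkn1c was at -0.015 by counts at equal depth. Meg3, Rian and Mirg also share 1 domain, so the maternal genes are not all separate cases.

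With a smaller limit of 0.5, chosen after seeing the data, 5 imprinted genes stood beyond it in pup 3, against 2.46% of all genes, and 0 in pup 1 (0.657% of all genes). These were Zdbf2 at 0.78, Kcnq1ot1 at 0.69, Rtl1 at 0.64, and Asb4 and Mest at 0.57 each, whose levels in each pup are given above. On TMM-scaled counts Mest fell just inside the limit, at 0.49. Nespas (1.04), Airn (0.58) and Atp10a (0.51) also stood higher in pup 3, but each lay under the mean of 100 counts. Among the highest genes the difference was small, at -0.019 for Nnat, 0.024 for Ndn and -0.093 for Snrpn, while Meg3 gave 0.17 by TPM and 0.32 by counts at equal depth. Under TMM scaling the sign turned for Cdkn1c (-0.024), Grb10 (0.050), Impact (-0.00055) and Commd1 (-0.012), all near 0.

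The pups also differed in genes that are not imprinted. Of the 12 forebrain and hypothalamus markers, 9 passed the count filter, 8 were higher in pup 3 and 6 by more than 1, with a median of 1.27. The list summed to 195 TPM in pup 1 and 390 TPM in pup 3, of which Avp alone gave 124 and 270 TPM. Emx2 (0.029), Six3 (0.26) and Lhx2 (-0.11) did not pass 1. None of the 12 was at 0 in both pups. Of the 9 midbrain markers, 7 reached 1 TPM in both pups and their median difference was -0.036, with 5 of the 7 lower in pup 3. The list summed to 981 and 1046 TPM, of which Tcf7l2 alone gave 645 and 726 TPM. The hindbrain Hox list had 0 of 8 genes at 1 TPM, and 5 were at 0 in both pups. The meningeal list was higher in pup 3 for 2 of 8 genes, Foxc1 and the imprinted gene Igf2, and summed to 698 and 656 TPM. The endothelial and mural list was lower in pup 3 for 6 of 7 genes (median -0.19, sums of 204 and 176 TPM), and 5 of 5 blood genes were higher (sums of 2084 and 2241 TPM). The labels record no sex, and Xist read 2.26 and 10434 counts while Ddx3y read 2618 and 0 counts. Eif2s3y, Kdm5d and Uty read 2032, 619 and 568 counts in pup 1 and 0 each in pup 3. By these genes pup 1 was male and pup 3 female, so sex goes with every difference between the pups. The part of these markers in the differences of imprinted genes was not tested, and with 1 library per pup they cannot be told apart from other differences between the pups. In whole tissue, more cells of a type and more RNA per cell cannot be told apart either.

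**Figure D4:**
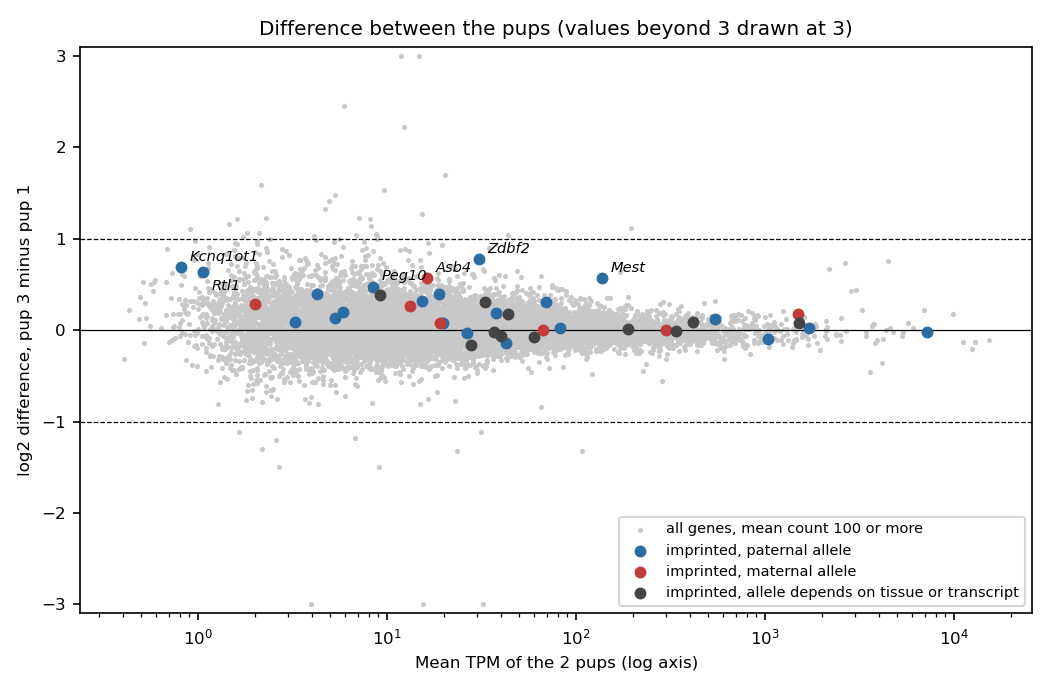
Log2 difference (pup 3 minus pup 1) against mean TPM on a log axis for all genes with a mean of 100 counts or more (grey) and for the 39 imprinted genes among them, coloured by the allele known to be expressed; dashed lines stand at -1 and 1, and values beyond 3 are drawn at 3. All 39 imprinted genes lie between the lines, with Zdbf2 highest at 0.78.

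Another list of 46 imprinted genes, none among the 44, was read for comparison, and 43 of its genes were matched. In both pups 33 reached 1 TPM and 6 reached 100 TPM, and the list's medians in pups 1 and 3 were 8.71 and 10.1 TPM. The 5 highest were Snurf, Cd81 (a tetraspanin, 481 and 431 TPM), Nap1l4 (a histone chaperone, 204.9 and 202.2 TPM), Igf2, and H13 (a signal peptide peptidase, 155 and 149 TPM). At 100 counts or more, 0 of 31 differed by more than 1 between the pups and 18 were higher in pup 3. Among 14 regulators of imprints, Trim28, the corepressor that ZFP57 recruits, read 161 and 163 TPM, Dnmt3a, a DNA methyltransferase, 88.1 and 108 TPM, and the insulator protein gene Ctcf 61.3 and 68.6 TPM. Nlrp5, known from the egg, had 0 counts in both.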

How the data were processed

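Total RNA libraries from the midbrains of 2 newborn pups form 1 group. Per the text record the authors deposited with the tables, build mm10 and GENCODE annotation M4 were used; the sources used here name no aligner or counting program and no strand setting. The deposited expected counts are the authors' estimates of reads per gene or transcript, and were rounded for edgeR and DESeq2. The deposited TPM values were scaled by the authors to a fixed sum over all rows after division by length. The transcript tables add the deposited percent of a gene's TPM in each transcript, and posterior mean TPM. The credibility bounds of that mean are signal values in the authors' deposited tables, at a level not stated, and served to judge whether a pair overlapped.

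Symbols and coordinates came from GENCODE M21 (same build), by identifier without version. Levels are means ± SD over 2 pups. All 44 listed genes are accounted for; of the comparison lists the 5 highest imprinted genes and the 4 highest regulators were to be named. The members and lists were chosen with earlier results of these data known. Pup differences are log2 of TPM after adding 0.1, at a mean of 100 counts or more. Transcript starts within 1000 bases were joined. The script was tested on simulated data for the pup difference (13254 genes): 39 of 100 genes changed 2-fold, 100 of 100 changed 4-fold and 0 of 13054 unchanged genes passed 1. Every simulated gene had the same spread beyond counting error (edgeR common dispersion 0.0084, from these 2 pups). Genes with a wider spread were not simulated, so the 0 does not cover them.

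Depth was 36934868 and 40769103 expected counts, and the median worth of a single count was 0.0191 TPM (pup 1) or 0.0176 TPM (pup 3). The floor for an absent gene was 3 counts, which covers counting error only. The labels describe separate pups. Alternatives were the pseudocount, posterior means, count filters, counts not divided by length, TMM and DESeq2 scaling and single pups. Tools were R 4.3.3, edgeR 4.0.16, DESeq2 1.42.0, Python 3.11.15, pandas 2.3.3 and matplotlib 3.10.9.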

Additional observations from a re-analysis of the deposited data

How the results depend on the processing

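In single pups, the median level of the imprinted genes was between 29.4 and 36.4 TPM, 39 to 41 reached 1 TPM, and 25 or 26 pairs were apart. Pairs whose call changed under other settings are named below. With a mean count of 10 or with no count filter, 1 imprinted gene (Nespas) differed by more than 1 between the pups, and with the limit of 0.5, added after seeing the data, 5 did. Over all genes, 26 differed by more than 1 with 1 TPM added and 368 at a mean count of 10. With no filter, where fewer counts per gene are allowed, 2287 did. Then 32.7% of all genes were higher in pup 3. Of the 42442 genes, 17326 had 0 counts in both pups and count as not higher in that share. Without division by length, Cdkn1c over Kcnq1ot1 (0.87), Peg10 over Sgce (-0.95), Sgce over Calcr (0.96) and Zdbf2 over Adam23 (0.18) were no longer apart, and Grb10 over Ddc (1.89) became so. On the same scale 3 pairs not called apart changed sign, of which Kcnq1 over Kcnq1ot1 (-5.25) and Sgce over Ppp1r9a (-1.36) became apart, and Igf2r over Airn (3.49) did not, since the credibility intervals of their TPM overlapped in at least 1 pup. With posterior means Kcnq1 over Kcnq1ot1 (1.53) became apart and Zdbf2 over Adam23 (0.95) did not stay so, nor did it with 1 TPM added (0.98). Of 30 leading transcripts, the share moved by more than 1 SD for 26 when taken of counts and for 8 with posterior means. Except where named, the cause was not tested. No paired analysis was possible because the 2 pups form a single group. Leaving out a pup leaves no difference between pups to read. Depth limits Phlda2, Nespas, Airn and Atp10a, all under a mean of 100 counts.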
